A study of Mus musculus with 12 samples.

Results

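The matrix metalloproteinases and their tissue inhibitors were followed in laser-captured aortic valve leaflets of mice aged 2 months, from animals in which fibulin-4 (gene Efemp2), an extracellular glycoprotein needed to assemble elastic fibres, had been deleted in different vascular cell types, and from controls. The genes were chosen by name: the inhibitors Timp1, Timp2, Timp3 and Timp4 and the proteinases Mmp2, Mmp3, Mmp9 and Mmp14, 8 of the 41709 genes in the deposited tables. Of these 8, 7 had at least 1 count in some library and 6 passed the filter on low counts and were tested. The groups were DKO (deletion in both smooth muscle and endothelial cells), SMKO (smooth muscle cells), ECKO (endothelial cells) and CTRL, with 3 libraries in each. The labels give these groups as codes, and the cell types stand here as the study is known; no source used here names the Cre drivers or the exact control genotype. All 4 groups shared a C57BL/6J;129SvEv background, perfusion, fixation and cryosectioning, and every library was made from whole leaflets cut from stained sections. Each library is called by its group and number, as in DKO 1. The labels call them biological triplicates without tying animals to libraries, so the p-values measure the spread between libraries.

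Matrix metalloproteinases are zinc-dependent enzymes, most of them secreted, that cleave collagens, elastin, proteoglycans and other matrix proteins. They are made as inactive proenzymes. TIMPs block them by binding the active site, and Timp2 also takes part in the activation of pro-Mmp2 at the cell surface by Mmp14, a membrane-anchored member. In heart valves, interstitial cells and macrophages are known sources of these proteins, and the balance of enzyme and inhibitor belongs to the normal turnover of the layered leaflet matrix.

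The promoter windows of Timp1, Timp3 and Mmp3 are shown. Timp3 was the most abundant member. Among the tested members, Timp1 had the largest and Mmp3 the smallest log2 fold change in DKO against CTRL. Whether the promoter letters bear on the level of a member or on its group differences was not tested. Each run is the 250 bases before the annotated start, read 5′ to 3′ on the gene's strand from RefSeq sequence of build GRCm38.p6. Capitals mark matches to 3 motifs searched on both strands: the GC box GGGCGG (also written CCGCCC on the other strand), the TATA box TATAAA and the AP-1 consensus TGANTCA.

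Timp1, chrX:20869916-20870165, plus strand
Timp1: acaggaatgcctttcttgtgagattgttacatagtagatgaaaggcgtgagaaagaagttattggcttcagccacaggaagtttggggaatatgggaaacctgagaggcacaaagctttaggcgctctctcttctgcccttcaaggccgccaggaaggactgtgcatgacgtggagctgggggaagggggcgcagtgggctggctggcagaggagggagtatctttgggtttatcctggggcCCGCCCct
Timp3, chr10:86300162-86300411, plus strand
Timp3: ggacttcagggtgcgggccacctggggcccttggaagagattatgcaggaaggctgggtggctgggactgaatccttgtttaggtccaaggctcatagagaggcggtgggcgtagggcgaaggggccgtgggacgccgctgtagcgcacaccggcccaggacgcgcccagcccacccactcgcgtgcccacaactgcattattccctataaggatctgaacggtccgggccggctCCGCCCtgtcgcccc
Mmp3, chr9:7445572-7445821, plus strand
Mmp3: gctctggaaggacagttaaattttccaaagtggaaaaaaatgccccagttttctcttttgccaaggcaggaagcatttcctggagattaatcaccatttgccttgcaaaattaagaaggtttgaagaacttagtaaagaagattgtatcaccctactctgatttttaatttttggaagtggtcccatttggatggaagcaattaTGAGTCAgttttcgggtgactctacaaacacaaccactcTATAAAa

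The windows of Timp1 and Timp3 each held 1 GC box, with its first base at −8 in Timp1 and at −15 in Timp3, and neither held the TATA or AP-1 letters. The Mmp3 window held no GC box, and carried a TATA box at −7 and an AP-1 consensus at −46. Among the 6 members with an entry, Mmp3 was the only one with either of these letters. GC boxes stood in 32.7% of all 32851 promoter windows of this length, TATA boxes in 12.4% and AP-1 consensus letters in 6.75%. The GC content was 65.6% in the Timp3 window, 54.4% in Timp1 and 37.6% in Mmp3, against a median of 52.4% over all windows. Timp2, on chromosome 11, held 1 GC box, Mmp14, on chromosome 14, held 2, and Timp4, on chromosome 6, held none of the 3 motifs. A match describes these letters and does not show that a factor binds there.

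The libraries were shallow, which sets how precisely a member can be read. Totals were 74827 to 615665 counts per library, with a median of 321312. SMKO 3 was the shallowest at 74827 counts and CTRL 3 was next at 159857. Mitochondrial genes took 10.5% to 28.5% of the counts. Efemp2 itself had 0 counts in the 3 DKO libraries, 4, 0 and 0 in SMKO, 3, 15 and 8 in ECKO, and 58, 23 and 9 in CTRL, which averaged 0 CPM in DKO, 2.27 in SMKO, 18.5 in ECKO and 62.3 in CTRL. The largest differences between libraries of a group were those of SMKO 2 and CTRL 3. The counts of SMKO 2 differed by a chi-square per degree of freedom of 9.64 from SMKO 1 and 5.23 from SMKO 3, against 3.81 between SMKO 1 and SMKO 3. Those of CTRL 3 differed by 9.15 from CTRL 1 and 8.39 from CTRL 2, against 2.80 between CTRL 1 and CTRL 2. To a smaller extent DKO 2 differed, by 3.75 from DKO 1 and 4.64 from DKO 3, against 2.38 between DKO 1 and DKO 3. So did ECKO 1, by 3.90 from ECKO 2 and 3.35 from ECKO 3, against 1.85 between ECKO 2 and ECKO 3. This measure was not adjusted for depth. For Timp1 and Timp3, some of the tests below are also given without SMKO 2 or CTRL 3. The correlations between genes are given for all 12 libraries only. In these bulk libraries, a change in the number of cells of a type and a change in RNA per cell cannot be told apart.

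Timp3 was the most abundant member in all 12 libraries. Levels of different genes are compared in TPM, a transcript share of each library that corrects for gene length. In DKO, the mean order was Timp3 at 3457 ± 648 TPM, Mmp2 at 1093 ± 102, Timp1 at 714 ± 248, Timp2 at 457 ± 50.1, Mmp3 at 70.7 ± 54.0 and Mmp14 at 33.1 ± 16.6 TPM (SD, n = 3). In CTRL, Timp3 averaged 1975 ± 389 TPM, Mmp2 717 ± 231, Timp2 427 ± 159, Timp1 217 ± 29.5, Mmp3 81.9 ± 36.7 and Mmp14 31.7 ± 6.95 TPM (SD, n = 3). Timp1 and Timp2 thus stood in opposite order in DKO and CTRL. Neighbours were not always separate: the CTRL ranges of Mmp2 and Timp2 overlapped, as did those of Timp2 and Timp1, and in DKO the ranges of Mmp2 and Timp1 overlapped, as did those of Mmp3 and Mmp14.

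The order of Timp1 and Timp2 was visible within single libraries, where no scaling between libraries enters. The ratio of Timp1 to Timp2 in TPM was 1.42, 1.94 and 1.25 in the 3 DKO libraries. It was 0.306, 1.57 and 0.344 in SMKO, 0.548, 0.494 and 0.509 in ECKO, and 0.461, 0.422 and 0.786 in CTRL. Every DKO library had more Timp1 than Timp2, no ECKO or CTRL library did, and in SMKO only library 2 did. Timp1 against Timp3 moved less, with ratios of 0.1502 to 0.282 in DKO and 0.0861 to 0.148 in CTRL. Timp3 made up 68.0% to 80.6% of the summed TIMP transcripts in every library, and Mmp2 80.5% to 94.5% of the summed transcripts of the MMP members.

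**Figure D1:**
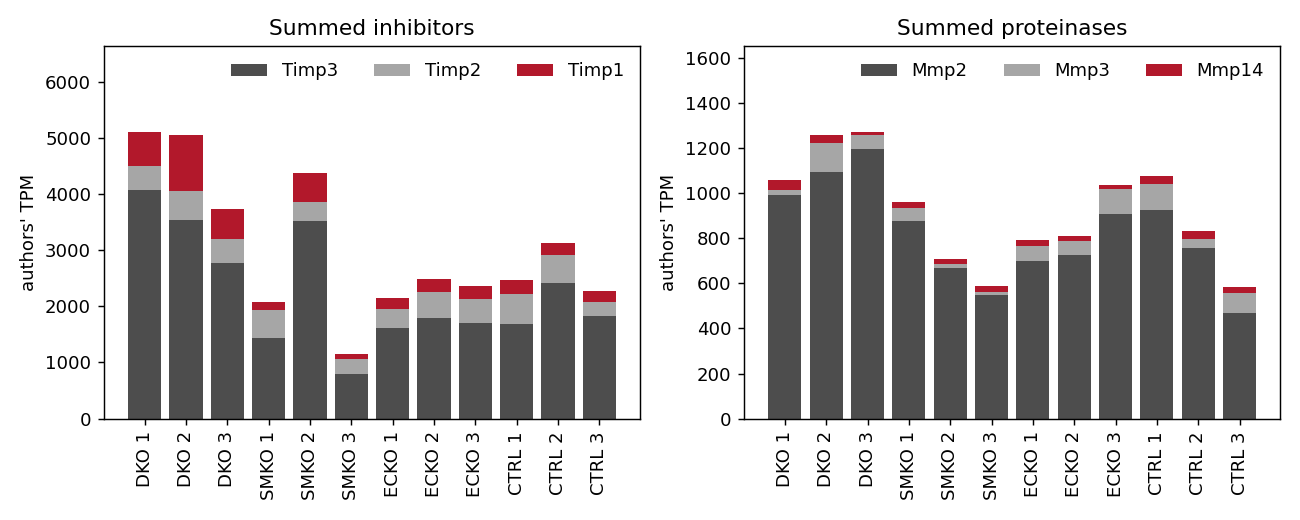
Transcripts of the inhibitors (Timp3, Timp2 and Timp1, left panel) and of the proteinases (Mmp2, Mmp3 and Mmp14, right panel) in each of the 12 libraries, stacked, in the authors' TPM; groups run DKO, SMKO, ECKO, CTRL. Timp3 fills 68.0% to 80.6% of the inhibitor bar and Mmp2 80.5% to 94.5% of the proteinase bar, and the tallest inhibitor bars belong to DKO 1, DKO 2 and SMKO 2.

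Inhibitor transcripts outnumbered those of the proteinases in all 12 libraries. The ratio of summed TIMP to summed MMP transcripts in TPM was 4.81, 4.00 and 2.94 in DKO, 2.17, 6.17 and 1.95 in SMKO, 2.71, 3.07 and 2.28 in ECKO, and 2.30, 3.75 and 3.89 in CTRL. The DKO and CTRL values overlapped, so the ratio itself did not separate the groups, and SMKO held both the highest and the lowest value. The members together took 1.23% to 1.58% of all counts in DKO, 0.449% to 1.53% in SMKO, 0.718% to 0.737% in ECKO and 0.704% to 0.865% in CTRL. Most of these counts were those of Timp3, with 27670 over the 12 libraries, and Mmp2 was next with 6403.

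Of the inhibitors, Timp1, a secreted inhibitor of most soluble MMPs that is known as an inducible gene in injured and fibrotic tissue, differed most. Values within a gene are given in CPM, counts scaled to a common library size by TMM (the trimmed mean of M-values). Timp1 had 377, 418 and 319 CPM in DKO from 83, 210 and 77 counts. It had 66.4, 452 and 55.2 CPM in SMKO, 113, 101 and 91.8 in ECKO, and 94.7, 83.5 and 141 in CTRL. All 3 DKO libraries stood above all 6 ECKO and CTRL libraries, whereas SMKO was split, with library 2 above every DKO library in CPM and libraries 1 and 3 below every CTRL library. SMKO 3, the shallowest library at 74827 counts, held few of the 131 Timp1 counts of SMKO. Its Timp1 value, and its place below CTRL, thus carry a large counting error. The means were 371 ± 49.7 CPM in DKO, 191 ± 226 in SMKO, 102 ± 10.4 in ECKO and 106 ± 30.6 in CTRL (SD, n = 3 each).

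The fold difference of Timp1 between DKO and CTRL was 3.73, a log2 fold change of 1.90 ± 0.63 (SE), with an unadjusted p of 0.0151 in edgeR's quasi-likelihood test and an adjusted p of 0.271 over all 6296 genes tested (Benjamini-Hochberg). Against ECKO it was 1.89 ± 0.63 on the log2 scale, with an edgeR adjusted p of 0.311. Neither passed the threshold of 0.05 in the model over all 12 libraries, in which the 4 groups share 1 estimate of spread per gene. The adjusted p differed with the SMKO libraries kept: without SMKO 2 the log2 fold change of Timp1 against CTRL was 1.89 with an edgeR adjusted p of 3.29e-06, without SMKO 1 it was 1.89 with 0.0268, without SMKO 3 1.88 with 0.227, and with only the DKO and CTRL libraries 1.86 with 0.000145. The fold change was nearly the same in these fits, and the p-values were not. Without CTRL 3 it was 2.04 (edgeR adjusted p = 0.328). With all libraries, Timp1 was called in DKO against CTRL by DESeq2 (adjusted p = 0.0158) and by edgeR without the filter on low counts (adjusted p = 0.00593). Over 19 other settings the edgeR or DESeq2 adjusted p ran between 3.29e-06 and 0.580, the call was made in 5, and the fold change was positive in 19.

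**Figure D2:**
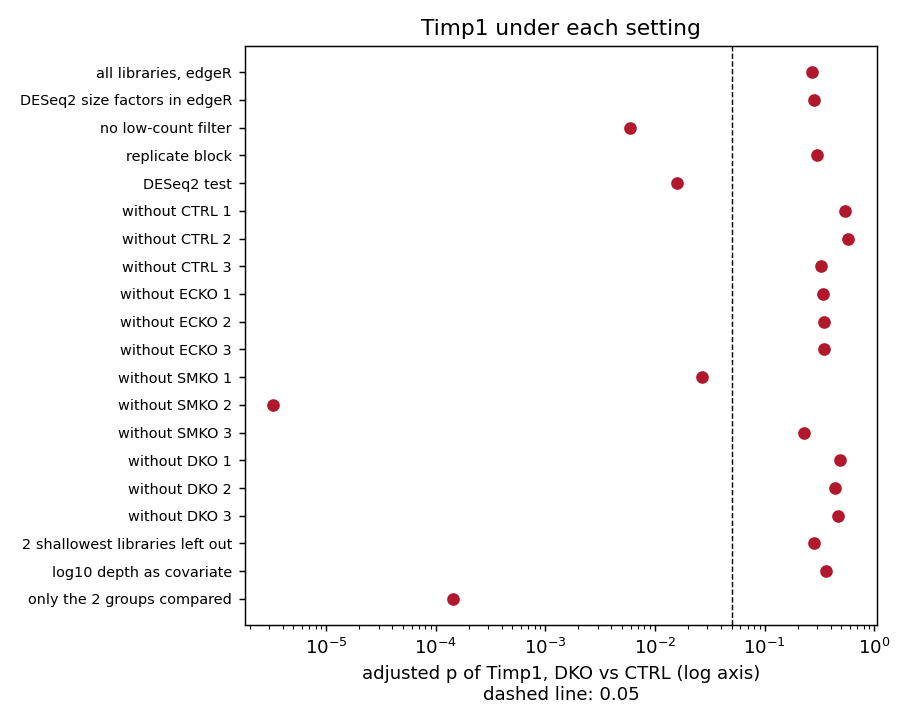
Adjusted p of Timp1 in DKO against CTRL (log axis) with all libraries in edgeR (top) and under 19 other settings, one point each; the dashed line marks 0.05. The 5 settings below the line include those without SMKO 1 (0.0268), without SMKO 2 (3.29e-06) and with only the DKO and CTRL libraries (0.000145).

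In the authors' deposited table, whose test is not given in the sources used here, Timp1 had a fold change of 3.58 in DKO against CTRL (p = 4.97e-05), 3.68 against ECKO (p = 3.19e-05) and 1.94 against SMKO (p = 0.0353). Timp1 lies on the X chromosome, within Syn1 on the opposite strand with 0 shared exonic bases, and the kit does not keep strand; Syn1 had 12 counts over all 12 libraries against 770 for Timp1. Libraries with Y-linked counts above 1 occurred in DKO (library 3), SMKO (library 1) and CTRL (library 3). Timp1 was at 319 CPM in DKO 3, against 141 in CTRL 3, among libraries with Y-linked counts, and at 377 and 418 in DKO 1 and DKO 2, against 94.7 and 83.5 in CTRL 1 and CTRL 2, among those without. SMKO 1 had 66.4 CPM. With 1 library a group among those with Y-linked counts, the part of sex in the Timp1 values was not tested.

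Timp3, the inhibitor that binds to the extracellular matrix and also blocks several ADAM and ADAMTS proteases, showed a similar order of libraries. Its level was 13961, 8251 and 9230.4 CPM in DKO, 3551, 16889.6 and 2636 in SMKO, 5248, 4372 and 3926 in ECKO, and 3551, 5394 and 7437 in CTRL. All 3 DKO libraries were above the ECKO and CTRL libraries, with DKO 2 close to CTRL 3. SMKO 2 was the highest of the 12 in CPM but not in TPM. The log2 fold change was 0.94 ± 0.52 against CTRL (edgeR adjusted p = 0.512) and 1.21 ± 0.52 against ECKO (edgeR adjusted p = 0.395). Without SMKO 2, Timp3 passed the test in DKO against ECKO with a log2 fold change of 1.20 (edgeR adjusted p = 0.0201), as it did with only the DKO and ECKO libraries (1.17, edgeR adjusted p = 0.0335). In DKO against CTRL, Timp3 was called in 0 of 19 other settings, with adjusted p of 0.103 to 0.809, and without CTRL 3 its log2 fold change was 1.21. The authors' deposited table gives Timp3 fold changes of 1.93 against CTRL (p = 0.0663) and 2.33 against ECKO (p = 0.0182). Timp3 shares 1733 exonic bases with Syn3 on the opposite strand in the GENCODE annotation, and Syn3 had 3 counts in all, against 27670 for Timp3.

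Timp2, the inhibitor that also serves in pro-Mmp2 activation, had the smallest log2 fold change of the tested TIMPs in DKO. It had 1162, 948 and 1120 CPM in DKO, 953, 1263 and 704 in SMKO, 901, 894 and 792 in ECKO, and 901, 869 and 788 in CTRL. The DKO libraries were all above those of ECKO and CTRL in CPM, by a narrow margin, but not in TPM. The log2 fold change was 0.33 ± 0.27 in DKO against CTRL (edgeR adjusted p = 0.696). Timp4, an inhibitor with a more restricted expression, was read 3 times, in ECKO 2 (2 counts) and ECKO 3 (1 count). It had 0 counts in DKO, SMKO and CTRL, which allows up to 3.11, 3.45 and 2.31 CPM (3 counts over the summed total of each group).

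**Figure D3:**
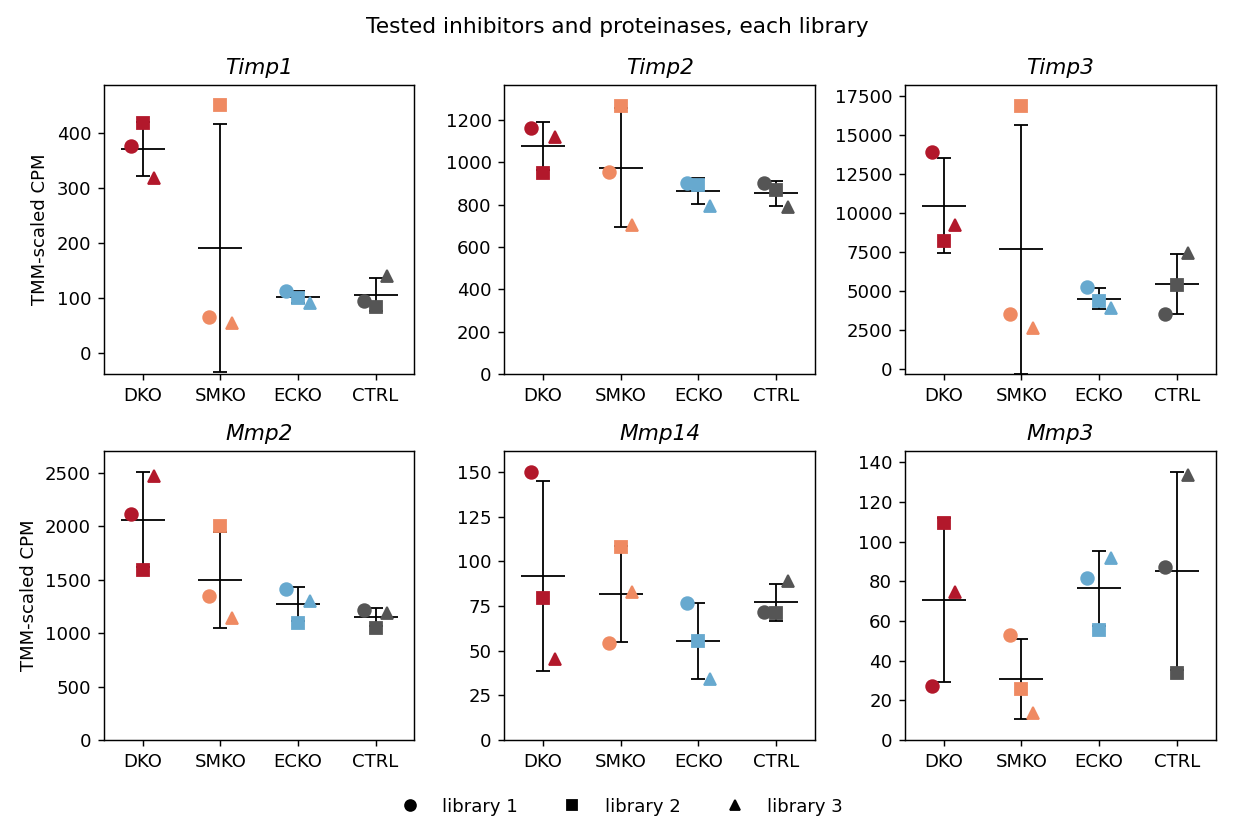
Level of the 6 tested members in each library (TMM-scaled CPM, linear axes), with groups in the order DKO, SMKO, ECKO, CTRL; marker shapes give the library number, and the bar and whiskers the mean and SD of 3 libraries. For Timp1 the DKO libraries lie at 319 to 418 CPM, above every ECKO and CTRL library, and SMKO 2 lies at 452 CPM, far from SMKO 1 and SMKO 3.

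Of the proteinases, Mmp2, a gelatinase that cleaves denatured collagen, type IV collagen and elastin, was the most abundant and was the member with the smallest unadjusted p in DKO against CTRL. It had 2120.2, 1591 and 2475.5 CPM in DKO, 1347, 2003 and 1146 in SMKO, 1418, 1100.2 and 1306 in ECKO, and 1217, 1051 and 1189 in CTRL. Every DKO library was above every ECKO and CTRL library. SMKO 2 was above DKO 2 in CPM but not in TPM, where it was at 670 and the lowest DKO library at 991. Mmp2 was 1.79-fold higher in DKO than in CTRL, a log2 fold change of 0.84 ± 0.30, with an unadjusted p of 0.00924 and an adjusted p of 0.222 in edgeR. Against ECKO the log2 fold change was 0.69 ± 0.30 (edgeR adjusted p = 0.392). Mmp2 was called in 0 of 19 other settings, with adjusted p of 0.0518 to 0.554 in DKO against CTRL. The authors' deposited table gives 1.77 against CTRL (p = 0.03335) and 1.62 against ECKO (p = 0.0718).

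Mmp14, the membrane-anchored activator of pro-Mmp2, was read at 6 to 49 counts per library. Its level was 150, 79.7 and 45.6 CPM in DKO, 54.4, 108 and 82.8 in SMKO, 76.8, 55.4 and 34.4 in ECKO, and 71.4, 71.1 and 89.2 in CTRL. The DKO libraries spread over more than the range of CTRL, and the groups overlapped. The log2 fold change was 0.26 ± 0.35 against CTRL (edgeR adjusted p = 0.845) and 0.76 ± 0.36 against ECKO (edgeR adjusted p = 0.445).

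Mmp3, or stromelysin, which cleaves proteoglycans and activates other proenzymes, was read at 1 to 60 counts per library. It had 27.2, 110 and 74.6 CPM in DKO, 52.7, 25.7 and 13.8 in SMKO, 81.9, 55.4 and 91.8 in ECKO, and 87.4, 34.0 and 134 in CTRL. DKO lay inside the CTRL range apart from DKO 1 below it, and the lowest values of the 12 libraries were those of SMKO 3 and SMKO 2, from 1 count and 5 counts. The log2 fold change was 0.05 ± 0.47 in DKO against CTRL (edgeR adjusted p = 0.989) and −0.87 ± 0.55 in SMKO against CTRL (edgeR adjusted p = 0.915).

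Mmp9, the gelatinase of neutrophils and macrophages, had 0 counts in all 12 libraries, which allows up to 3.11 CPM in DKO, 3.45 in SMKO, 2.50 in ECKO and 2.31 in CTRL (3 counts over the summed total of each group; counting error only). Neutrophil markers were also nearly absent, with a summed level of 0 to 12.4 CPM in DKO, 0 in SMKO, 4.38 to 11.5 in ECKO and 0 to 3.09 in CTRL. Macrophage markers were present in every group, at a summed 779 to 1957 CPM in DKO and 793 to 1092 in CTRL.

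Counted together, 0 of the 6 tested members passed an edgeR adjusted p of 0.05 in DKO against CTRL, where 0.492% of all genes did. By DESeq2 it was 1, Timp1, among 42 genes called. At an unadjusted p under 0.05 there were 2, Timp1 and Mmp2, where 11.6% of all genes passed. The 3 DKO libraries did not overlap those of CTRL in CPM for 4 members, Timp1, Timp2, Timp3 and Mmp2, against 17.8% of all genes, and in TPM for 3, Timp1, Timp3 and Mmp2, against 8.69%. All 6 had a log2 fold change above 0 in edgeR, as did 51.5% of all genes, and their median was 0.59, against 0.02 over all genes tested. The smallest was that of Mmp3, at 0.05, and its sign differed by tool. By DESeq2 it was −0.15, and the authors' deposited table gives Mmp3 a signed fold change of −1.08, an inverse fold.

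In DKO against ECKO, 0 of 6 passed the edgeR adjusted p, where 0.572% of all genes did. DESeq2 called 1, Timp1, among 36 genes. At an unadjusted p under 0.05 there were 4, Timp1, Timp3, Mmp2 and Mmp14, where 10.8% of all genes passed. The same 4 genes as against CTRL did not overlap in CPM, against 18.9% of all genes, and the same 3 in TPM, against 13.7%. All 6 had a log2 fold change above 0 in edgeR, as did 51.8% of all genes. The smallest was again that of Mmp3, at 0.04 in edgeR and −0.0727 by DESeq2. The median log2 fold change of the 6 was 0.73, against 0.02 over all genes. These comparisons share the DKO libraries, so they are not independent.

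The 3 remaining comparisons addressed each single deletion and the step between 1 and both. In DKO against SMKO, edgeR called 0 of 6 members and 0% of all genes; DESeq2 called 0 members and 3 genes, and at an unadjusted p under 0.05 there were 0 members and 396 genes (6.29%). All 6 members had a log2 fold change above 0, as did 52.2% of all genes. In CPM every member overlapped, where 9.55% of all genes did not, and in TPM Timp1 and Mmp2 did not overlap, nor did 6.39% of all genes; Timp1 was at 610, 996 and 534 TPM in DKO and 149.5, 524 and 91.7 in SMKO. Timp1 had a log2 fold change of 0.93 ± 0.63 (edgeR adjusted p = 0.896), Timp3 0.44 ± 0.52 (edgeR adjusted p = 0.95) and Mmp2 0.45 ± 0.30 (edgeR adjusted p = 0.887). These values depended on each SMKO library. The log2 fold change of Timp1 in DKO against SMKO was 0.36 without SMKO 1, 2.52 without SMKO 2 (edgeR adjusted p = 2.72e-06) and 0.64 without SMKO 3. That of Timp3 was 0.0956 without SMKO 1, 1.76 without SMKO 2 (edgeR adjusted p = 0.00332) and 0.0304 without SMKO 3.

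In SMKO against CTRL, 0 of 6 members passed in edgeR, with 0% of all genes, and none had an unadjusted p under 0.05, against 345 of all genes (5.48%); every member overlapped in CPM, where 10.5% of genes did not, and DESeq2 called 0 members and 0 genes. The log2 fold change of Timp1 was 0.97 ± 0.67 with all libraries and −0.63 without SMKO 2, and that of Timp3 was 0.50 ± 0.52 with all libraries and −0.83 without SMKO 2, so 1 library set both directions. In ECKO against CTRL, 0 of 6 members passed in edgeR, with 0% of all genes; none had an unadjusted p under 0.05, against 273 of all genes (4.34%), every member overlapped in CPM, where 11.8% of genes did not, and DESeq2 called 0 members and 2 genes. Timp1 differed by 0.01 ± 0.66 on the log2 scale, Timp2 by 0.01 ± 0.27, Timp3 by −0.27 ± 0.52, Mmp2 by 0.15 ± 0.30 and Mmp14 by −0.50 ± 0.36. With SEs of this size, these values do not show that ECKO and CTRL were alike.

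**Figure D4:**
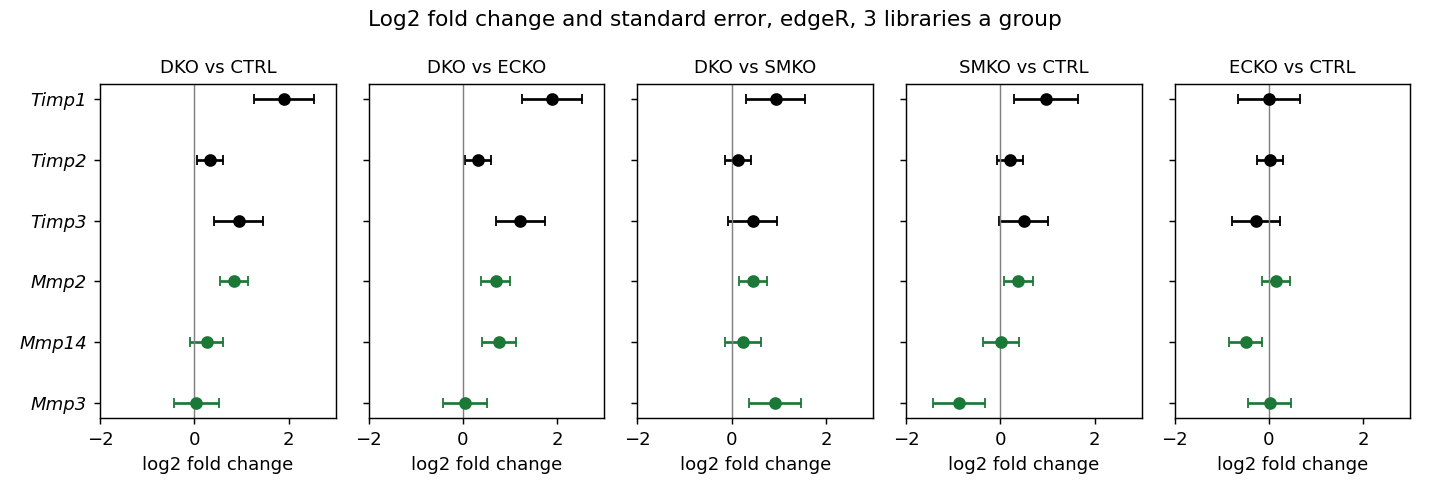
Log2 fold change with its SE from edgeR for the 6 tested members in 5 comparisons, each named with its numerator first; inhibitors are black and proteinases green. In DKO against CTRL and against ECKO, Timp1 lies furthest from 0, at 1.90 and 1.89, and in ECKO against CTRL it lies at 0.01.

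Whether the difference in DKO exceeded the sum of the differences in SMKO and ECKO was tested as an interaction. In edgeR 0 of 6 members passed, with 0.0318% of all genes, and at an unadjusted p under 0.05 there were 0 members and 392 genes (6.23%); DESeq2 called 0 members and 1 gene. Timp1 had an interaction of 0.92 ± 0.91 on the log2 scale (edgeR adjusted p = 0.935), against 0.35 without SMKO 1, 2.51 without SMKO 2 (edgeR adjusted p = 0.000664) and 0.63 without SMKO 3. For Timp3 it was 0.72 ± 0.73 with all libraries, 0.37 without SMKO 1, 2.03 without SMKO 2 (edgeR adjusted p = 0.0146), 0.31 without SMKO 3 and 0.0158 without the shallowest libraries SMKO 3 and CTRL 3. A test over the 4 groups called 0 members in edgeR, with 0.302% of all genes. DESeq2 called 1 member in it, Timp1, among 37 genes. Timp1 and Mmp2 had unadjusted p values of 0.0334 and 0.0407 in edgeR, where 8.99% of all genes had one under 0.05.

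Timp1 and Timp3 varied together across libraries more closely than any other pair of members. As a description over 12 libraries, in values that all depend on each library’s depth and scaling, Pearson's r of log2 CPM was 0.928 for Timp1 and Timp3, 0.830 for Timp1 and Mmp2, 0.834 for Timp2 and Mmp2, and −0.416 for Mmp14 and Mmp3. The 3 DKO libraries and SMKO 2 form the upper end of the relation of Timp1 and Timp3, and the other 8 libraries the lower end. Mmp3 had r of −0.149 to 0.0748 with the members other than Mmp14. Among all tested genes, the closest to Timp1 were Col15a1 (r = 0.971), Col8a1 (0.970) and Npy (0.969), and the closest to Timp3 were Igfbp7 (0.973), Npy (0.965) and Cd9 (0.948). For Mmp2 they were Myl6 (0.943), Sparc (0.938) and Trf (0.918), and for Timp2 they were Cd63 (0.967), Atox1 (0.953) and S100a11 (0.941). The low-count members were less alike to their nearest genes, which were Mrpl57 (0.882), Snrpb2 (0.838) and Btbd7 (0.833) for Mmp14 and Hnrnpl (0.882), Cdc26 (0.871) and Rfc5 (0.851) for Mmp3.

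**Figure D5:**
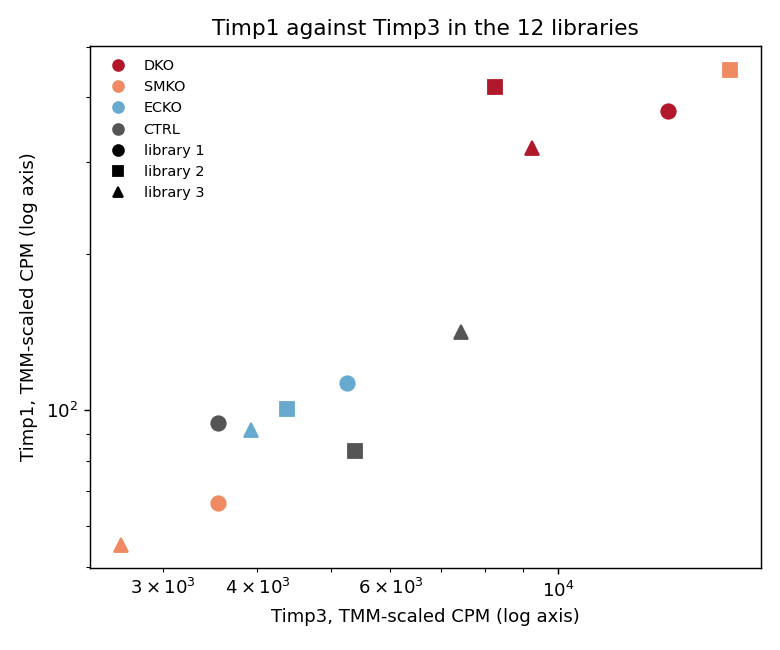
Timp1 against Timp3 in the 12 libraries, TMM-scaled CPM on log axes; colours give the group and shapes the library number. The 3 DKO libraries and SMKO 2 lie at 319 to 452 CPM of Timp1 and the other 8 libraries at or below 141 CPM.

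Markers of cell types moved with some of these values. SMKO 2 had the highest Timp1 and Timp3 of the 12 libraries in CPM. It also had the highest summed macrophage markers, at 3779 CPM, and the highest summed interstitial fibroblast markers, at 46417 CPM. Its TMM factor, 0.739, was the lowest, which raises its CPM values. In TPM its Timp1, at 524, was below every DKO library. Its Timp3, at 3518 TPM, was below DKO 1 at 4064 and DKO 2 at 3532. The fibroblast list, with 7 of 7 markers read, was at 26816 to 41142 CPM in DKO, 18509 to 46417 in SMKO, 24870.2 to 32288 in ECKO and 28797 to 33990 in CTRL. Among these 7 markers, 1 was higher and 1 lower at an unadjusted edgeR p under 0.05 in DKO against CTRL, where 11.6% of all genes had one. There edgeR called 0 of them and DESeq2 called 2, Pdgfra and Col1a1, among 42 genes. Against ECKO edgeR called 0 and DESeq2 called 1, Pdgfra. The macrophage list, with 8 of 8 markers read, was at 779 to 1957 CPM in DKO, 814 to 3779 in SMKO, 724 to 1408 in ECKO and 793 to 1092 in CTRL. DKO 2 had the highest Timp1 of DKO, at 418 CPM, and its macrophage sum was 779 CPM, below every CTRL library. The endothelial list, with 9 of 9 markers read, was at 854 to 1020.1 CPM in DKO, 909 to 1477 in SMKO, 1167 to 1469 in ECKO and 957 to 1196 in CTRL. Of its 9 markers, 5 were lower and 1 higher at an unadjusted p under 0.05 in DKO against CTRL, with a median log2 fold change of −0.96, and 0 were called by edgeR or DESeq2. In DKO against ECKO edgeR called 2 lower, Kdr and Prox1, and DESeq2 called Egfl7, where each tool called 36 genes. The smooth muscle list, with 6 of 6 markers read, was at 328 to 384 CPM in DKO, 193 to 257 in SMKO, 302 to 342 in ECKO and 245 to 305 in CTRL. Of its 3 tested markers, edgeR and DESeq2 called 0 in DKO against CTRL. The melanocyte list, with 6 of 6 markers read, was at 384 to 903 CPM in DKO, 193 to 1006.5 in SMKO, 61.4 to 101 in ECKO and 201 to 677 in CTRL, with SMKO 2 the highest. In DKO against ECKO edgeR called 1 melanocyte marker higher, Dct, and DESeq2 called 3, Dct, Tyrp1 and Mlana. In DKO against CTRL both called 0. In ECKO against CTRL, 4 of the 5 tested melanocyte markers were lower at an unadjusted edgeR p under 0.05, where 4.34% of all genes had one. Their median log2 fold change there was −3.02, and edgeR called 0 of them and DESeq2 1, Dct, among 2 genes. The part of cell composition in the Timp1 and Timp3 values was not tested.

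The enzymes and inhibitors act within a wider set of proteases, and 0 of its members passed the edgeR test in DKO against CTRL. Of 19 other MMP genes, 2 were tested, Mmp23 and Mmp12, and 0 were called. Mmp23 was at 162 ± 43.8 CPM in DKO and 78.9 ± 23.4 in CTRL, a log2 fold change of 0.89 ± 0.31 (edgeR adjusted p = 0.214). Of 27 ADAM and ADAMTS genes, 11 were tested, 0 were called, where 0.492% of all genes were, and 4 had an unadjusted p under 0.05, 3 higher and 1 lower, where 11.6% of all genes had one. The lower one was Adamts5, an aggrecan-cleaving protease, at 36.3 ± 6.58 CPM in DKO and 96.5 ± 45.2 in CTRL (SD, n = 3 each), a log2 fold change of −1.16 ± 0.36 (edgeR adjusted p = 0.172). The higher ones with the smallest p were Adam15, a membrane sheddase, at 177 ± 30.3 CPM in DKO and 95.02 ± 21.5 in CTRL (edgeR adjusted p = 0.120), and Adamts2, which processes procollagen, with a log2 fold change of 0.84 ± 0.25 (edgeR adjusted p = 0.129). DESeq2 called 0 genes in either list.

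The plasminogen system, which activates several proMMPs, had 3 tested genes of 8, 0 called by edgeR or DESeq2, and 1 with an unadjusted p under 0.05, where 0.492% of all genes were called and 11.6% had such a p. That gene was Serpine2, a serine protease inhibitor, at 436, 546 and 514 CPM in DKO, 78.3, 698 and 110.4 in SMKO, 148, 238 and 191 in ECKO, and 131, 153 and 119 in CTRL. Serpine2 thus shared with Timp1 the separation of DKO from ECKO and CTRL and the split of SMKO, and its log2 fold change against CTRL was 1.87 ± 0.69 (edgeR adjusted p = 0.329). Plat, the tissue plasminogen activator, had a log2 fold change of −0.45 ± 0.37 (edgeR adjusted p = 0.705). Of 12 partners in activation, anchoring and clearance, 11 were tested; 0 were called by edgeR or DESeq2, and 3 had an unadjusted p under 0.05, 1 higher and 2 lower, against the same 0.492% and 11.6% of all genes. The higher one was Bsg, a membrane glycoprotein known to induce MMPs, with a log2 fold change of 0.73 ± 0.26 (edgeR adjusted p = 0.224). The lower ones were A2m, a plasma protease trap, at −1.89 ± 0.86, and Cav1, a caveolar coat protein, at −0.53 ± 0.25 (edgeR adjusted p = 0.374 and 0.409).

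Matrix proteins that MMPs cleave did include genes that passed. Of 17 substrates, 16 were tested; in DKO against CTRL 2 rose and 0 fell in edgeR, where 0.492% of all genes were called, and 13 of 16 had a log2 fold change above 0, as did 51.5% of all genes. DESeq2 called 5 of them, Eln, Col1a1, Col1a2, Col4a1 and Col4a2, among 42 genes called. Eln, which encodes elastin, was at 469 ± 90.2 CPM in DKO and 163 ± 23.5 in CTRL, a log2 fold change of 1.55 ± 0.29 (edgeR adjusted p = 0.00971). Col4a1, a basement membrane collagen chain, was at 445 ± 50.5 CPM in DKO and 170.1 ± 19.8 in CTRL, a log2 fold change of 1.39 ± 0.29 (edgeR adjusted p = 0.0188). Against ECKO edgeR called 1 substrate, Eln, where 0.572% of all genes were called. Eln rose there by 1.26 ± 0.29 on the log2 scale (edgeR adjusted p = 0.0399). DESeq2 called 2 substrates against ECKO, Eln and Col4a2, among 36 genes. The median log2 fold change in DKO against CTRL was 0.59 for the members, 0.68 for the 2 other MMP genes tested, −0.0608 for the ADAM and ADAMTS genes, of which 7 of 11 were below 0, 1.61 for the 3 plasminogen genes, 0.46 for the partners and 0.88 for the substrates, against 0.02 for all genes tested.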

How the data were processed

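RNA-seq of laser-captured leaflets was analysed in 12 libraries of 4 groups. The authors deposited raw counts per gene, aligned to GRCm39 per the submitters' processing notes, with no strand kept by the library kit per the labels' protocols. The authors also deposited TPM values, used here only for levels between genes, and, per the file headers, a signed fold change, a score that is negative for an inverse fold, and p-values; no source used here states their test or adjustment. From the counts, genes were kept with edgeR's filterByExpr (minimum count 10), scaled by TMM and tested with edgeR 4.0.16 (R 4.3.3), quasi-likelihood F test, robust, with the 12 libraries in 1 model (8 residual degrees of freedom, no covariate); p-values were adjusted by Benjamini-Hochberg over 6296 genes, with a threshold of 0.05. The SE is the absolute log2 fold change divided by the square root of F. The script was tested on simulated data. Alternatives were DESeq2 1.42.0, its size factors in edgeR, no filter, a replicate block, each library left out, and, chosen after seeing the data, the shallowest libraries SMKO 3 and CTRL 3 left out, log10 depth as a covariate, and only the libraries of the groups compared. Depth was 74827 to 615665 counts, so members with few counts carry large counting error; intervals and floors cover counting error only.

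Genes other than the members were named if they passed the test in their list, were among its 3 smallest p-values in DKO against CTRL, or were the 3 genes most like a member in log2 CPM; 1 gene named by this rule is not reported here. The members, lists and markers were chosen with earlier results of these data known. Nesting of Timp genes in other genes came from GENCODE on GRCm38, and promoter sequence from RefSeq on GRCm38.p6, in which 6 of 8 members had an entry (Mmp2 and Mmp9 had none).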

Additional observations from a re-analysis of the deposited data

How the results depend on the processing

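Of 678 values of member fold changes under another setting, 617 kept their direction and their side of the threshold, 16 kept their direction and passed it, and 45 changed sign. In the main edgeR fit, with all libraries and the filter on low counts, 0 members were called in every comparison. In DKO against CTRL, 1 was called without the filter, by DESeq2 and with only the groups compared, and 0 to 1 with 1 library left out. In DKO against ECKO it was 1 without the filter, 1 by DESeq2, 2 with only the groups compared, and 0 to 2 with a library left out. The 4-group test gave 1 without the filter, 1 by DESeq2 and 0 to 2 with a library left out; DKO against SMKO and the interaction gave 0 to 2 with a library left out, and the comparisons of each single deletion with CTRL gave 0 throughout.

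The number of genes called in DKO against CTRL was 31, and 158 without the filter, 50 with the replicate block, 16 with depth as a covariate, 99 with only the groups compared and 4 to 139 with a library left out (71 without SMKO 1, 139 without SMKO 2). In DKO against ECKO it was 36, and 173 without the filter, 69 without the shallowest libraries, 10 with depth, 172 with only the groups compared and 0 to 150 with a library left out. In DKO against SMKO it was 0, and 32 without the filter, 3 by DESeq2 and 0 to 128. In SMKO against CTRL it was 0, and 8 without the filter and 0 to 1. In ECKO against CTRL it was 0, and 15 without the filter, 2 by DESeq2, 1 without the shallowest libraries, 3 with only the groups compared and 0 to 2. The interaction gave 2, and 28 without the filter, 1 by DESeq2, 1 without the shallowest libraries and 0 to 62. The 4-group test gave 19, and 218 without the filter, 37 by DESeq2, 9 with depth and 3 to 150. The causes were not tested.

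The sign changes with the largest values were those of Timp1 and Timp3 in SMKO against CTRL without SMKO 2. On the log2 scale and without the filter, Mmp3 was −0.0102, Timp1 −0.0095 and Timp2 −0.00122 in ECKO against CTRL, and Mmp14 was −0.0298 in SMKO against CTRL. By DESeq2, Mmp3 was −0.15 in DKO against CTRL, −0.0727 in DKO against ECKO and −0.0812 in ECKO against CTRL, and Timp1 was −0.0344 in ECKO against CTRL. Without the shallowest libraries, Timp2 was −0.0558 in DKO against SMKO, −0.0402 in ECKO against CTRL and −0.0156 in the interaction, and Timp3 was 0.0104 in ECKO against CTRL. With depth, Mmp14 was −0.13 in SMKO against CTRL. With 1 library left out, the range in DKO against CTRL was −0.19 to 0.54 for Mmp14 and −0.51 to 0.35 for Mmp3, and in DKO against ECKO −0.52 to 0.35 for Mmp3. In DKO against SMKO it was −0.20 to 0.56 for Mmp14 and −0.0525 to 0.36 for Timp2. In SMKO against CTRL it was −0.31 to 0.42 for Mmp14, −0.63 to 1.53 for Timp1, −0.0416 to 0.37 for Timp2 and −0.83 to 0.89 for Timp3. In ECKO against CTRL it was −0.46 to 0.28 for Mmp3, −0.14 to 0.17 for Timp1, −0.0381 to 0.0755 for Timp2 and −0.50 to 0.0127 for Timp3, and in the interaction −0.0637 to 0.35 for Timp2.

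Libraries with the same number were at most weakly alike in their deviations from the group means. These correlated by −0.143 to 0.177 for number 1, −0.0391 to 0.106 for number 2 and 0.0171 to 0.151 for number 3. Such values do not show that no pairing exists. With the replicate block, Mmp3 was −0.000566 and Timp1 −0.029 in ECKO against CTRL, and Mmp14 was −0.00721 in SMKO against CTRL. Low depth limits Mmp14 and Mmp3 most, and Timp4 and Mmp9 could not be tested.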
